A study of Homo sapiens with 18 samples.

Results

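The genes described here encode 10 cell adhesion molecules of the immunoglobulin superfamily: CADM1, CADM4, NECTIN1, NECTIN4, CEACAM1, ICAM1, VCAM1, THY1, L1CAM and ALCAM. They were chosen by symbol, with earlier results of these data known. Each matched a single row, so that 10 of the 35933 genes with values make up the set. RNA sequencing had been done on 18 libraries, 3 replicates (a, b and c) each of a negative control and a METTL3 knockdown in 3 human breast epithelial lines, to ask whether lowering the mRNA methyltransferase METTL3 has different effects at different stages of the MCF10 progression model. MCF10A is spontaneously immortalized and non-tumorigenic, MCF10AT1 is its derivative with a mutated HRas added, and repeated xenografting of MCF10AT1 in mice gave MCF10CA1h. By the study's methods, all 6 groups came from cells transiently transfected with a CRISPR/Cas9 construct that also expressed mCherry. It held a control guide in the negative control groups, whose sample titles read WT. In the knockdown groups it held a guide to the first exon of METTL3. All 6 were grown in DMEM/F12 with horse serum, insulin, hydrocortisone, cholera toxin and EGF. Each arm came from sorted cells diluted to single cells for clonal selection, and a single knockdown line per cell line was sequenced, so the knockdown and the clone cannot be told apart. Nothing in the labels says that replicates a, b and c were separate cultures, so p-values measure the spread between these libraries, which may be technical.

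Proteins of this family reach out from the plasma membrane through immunoglobulin folds and bind like or unlike partners on the neighbouring cell or in the matrix. Nectins and the nectin-like CADM proteins help to build epithelial junctions, CEACAM1 makes contacts between epithelial cells and passes inhibitory signals, and ICAM1 and VCAM1 are the cytokine-induced ligands of leukocyte integrins. THY1 is a small GPI-anchored member typical of fibroblasts, neurons and some endothelium, L1CAM is known from axon growth and from invasive carcinoma, and ALCAM binds itself and the lymphocyte receptor CD6.

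By the GENCODE annotation on hg38, all 10 are protein-coding genes. CADM1 lies on chromosome 11 at 115169218 to 115504957, THY1 on chromosome 11 at 119415476 to 119424985 and NECTIN1 on chromosome 11 at 119623408 to 119729200, all on the minus strand, with 0.20 Mb between THY1 and NECTIN1. ICAM1 (10271093 to 10286615, plus strand), CEACAM1 (42507304 to 42561234, minus strand) and CADM4 (43622368 to 43639850, minus strand) are on chromosome 19. VCAM1 (100719742 to 100739045, plus strand) and NECTIN4 (161070998 to 161089558, minus strand) are on chromosome 1, ALCAM is on chromosome 3 (105366909 to 105576900, plus strand) and L1CAM is on chromosome X (153861514 to 153886173, minus strand).

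The 250 bases before the transcription start, from RefSeq on GRCh38.p14, are shown for the members whose levels differed most between the arms of MCF10AT1 and have a single promoter entry. A single entry matched 6 of the 10 members. Capitals mark every match, on either strand, to the NF-kB consensus GGGRNWYYCC or to the E-box CACCTG that is bound by repressors of epithelial genes. They also mark every match to the AP-1 motif TGANTCA or to the interferon element core GAAANNGAA. The windows are chr19:10270870-10271119 (plus strand) for ICAM1, chr1:100719492-100719741 (plus strand) for VCAM1, chr1:161089559-161089808 (minus strand) for NECTIN4 and chr19:42528482-42528731 (minus strand) for CEACAM1, each printed 5′ to 3′ in the direction of the gene. The RefSeq starts of ICAM1 and CEACAM1 lie inside the longer GENCODE genes. The ICAM1 window thus ends inside its gene, and the CEACAM1 window lies wholly inside its own.
ICAM1: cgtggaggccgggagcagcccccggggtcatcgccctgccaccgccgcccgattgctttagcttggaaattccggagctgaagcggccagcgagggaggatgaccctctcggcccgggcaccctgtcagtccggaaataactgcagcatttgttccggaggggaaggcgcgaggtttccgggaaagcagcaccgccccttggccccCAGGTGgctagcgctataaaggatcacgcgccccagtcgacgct
VCAM1: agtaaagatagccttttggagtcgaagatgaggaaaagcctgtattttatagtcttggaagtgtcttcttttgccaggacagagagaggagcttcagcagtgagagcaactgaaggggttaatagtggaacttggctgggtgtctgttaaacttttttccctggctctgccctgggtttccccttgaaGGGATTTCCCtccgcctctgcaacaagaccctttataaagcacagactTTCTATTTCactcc
NECTIN4: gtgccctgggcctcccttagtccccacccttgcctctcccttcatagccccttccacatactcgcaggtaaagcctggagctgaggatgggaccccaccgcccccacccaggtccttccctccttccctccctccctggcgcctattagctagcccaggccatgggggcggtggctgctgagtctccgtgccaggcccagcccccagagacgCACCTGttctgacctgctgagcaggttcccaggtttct
CEACAM1: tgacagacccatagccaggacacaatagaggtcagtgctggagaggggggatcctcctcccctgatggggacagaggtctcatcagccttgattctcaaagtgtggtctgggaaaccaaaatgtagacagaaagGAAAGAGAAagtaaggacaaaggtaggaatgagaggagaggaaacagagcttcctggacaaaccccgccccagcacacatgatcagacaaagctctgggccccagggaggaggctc
In the VCAM1 window the NF-kB consensus was matched at a single position, on both strands, at 62 to 53 bases before the start. The interferon element core was matched there once, at 14 to 6 bases before the start. The ICAM1 window held the E-box, read on the opposite strand, at 44 to 39 bases before the start, and the NECTIN4 window held it at 38 to 33 bases before the start. The CEACAM1 window held the interferon element core at 116 to 108 bases before the start. Matches at different positions did not overlap, and AP-1 was matched in none of these windows. Among the windows of the same length before all 35116 starts in the table, 5.21% held the NF-kB consensus, 17.5% the E-box, 6.57% AP-1 and 6.88% the interferon element core. A match describes the letters and is not evidence of a bound site. Sites that depart from these letters are not marked, so a window without a match, as ICAM1 for NF-kB, is not shown to lack a site.

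Levels are given as normalized counts, which are not scaled for gene length, so a gene is compared only with itself across libraries. The normalized counts of a library summed to between 21347352 and 31681834, and the read depth behind them is unknown because whole reads could not be recovered. The METTL3 transcript itself (ENSG00000165819) was at 752, 686 and 459 in the MCF10A negative controls and at 939, 981 and 509.8 in the libraries labelled knockdown, a log2 difference of 0.33 (SE 0.30, limma adjusted p = 0.618). In MCF10AT1 the METTL3 difference was -0.17 (SE 0.26, limma adjusted p = 0.707), and in MCF10CA1h METTL3 fell by 0.49 (SE 0.12, limma adjusted p = 0.0234). The transcript was thus not lower in MCF10A and differed by less than the spread in MCF10AT1, and the arms are called here the libraries labelled knockdown. An edit in the first exon need not lower the transcript, and METTL3 protein, by which the study picked its knockdown lines on Western blots, was not analysed here.

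The MCF10AT1 libraries labelled knockdown stood apart. Their Pearson correlations with the MCF10AT1 negative controls, over log2(normalized count + 1), ran from 0.755 to 0.857, against 0.874 to 0.943 among those controls and 0.914 to 0.962 among the knockdown-labelled libraries. With the 2 groups of MCF10CA1h they correlated at 0.828 to 0.866 (controls) and 0.820 to 0.852 (labelled knockdown), ranges that overlap that with the controls of their own line, and with the MCF10A controls at 0.679 to 0.825. MTAP, in the chromosome 9 segment that MCF10A is known to have lost, was at 117, 106 and 133 in these 3 libraries and at 1.53 to 46.5 in the MCF10AT1 negative controls, and no other library exceeded 46.5. The fit did not call it, with a log2 difference of 3.42 (limma adjusted p = 0.0518). In MCF10AT1, 6 of the 10 epithelial markers fell, where 5.96% of all genes were called lower. The log2 differences were -8.89 for ESRP1, -6.79 for CDH1 and -5.16 for EPCAM, while the keratin KRT8 was still at 9545 to 19882. The summed epithelial list spanned 103210 to 193950 in the knockdown-labelled libraries and 122020 to 200510 in the controls. Of the fibroblast list, 1 of 5 tested markers rose (COL3A1, to 1208, 840 and 385 from 0, 0 and 2.25), where 7.07% of all genes were called higher. The list's sum was 1521 to 2027 against 468 to 738, without overlap. The other tested fibroblast markers, DCN, FAP, COL1A1 and PDGFRB, were not called, and of the untested ones PDGFRA was at 1.22 to 24.6 against 0 to 5, COL1A2 at 0 to 5.72 against 0 and LUM at 0 to 0.46 against 0. The endothelial list summed to 386 to 650 against 235 to 878, with CDH5 at 0, VWF at or below 1.61 and PECAM1 the 1 marker of that list whose mean reached 10. The leukocyte list summed to 1771 to 2362 against 606 to 1444, again without overlap. CD14 made up most of that sum, at 1745 to 2343 against 517 to 1378 (log2 difference 1.31, limma adjusted p = 0.0567), while CSF1R was at 0.85 to 25.6 against 64.7 to 93.8 (-3.04, limma adjusted p = 0.0802) and PTPRC and CD3E were at 0. The part of these shifts in the results for MCF10AT1 was not tested, and since they hold for all 3 knockdown-labelled libraries, no result can be given without them. In every MCF10AT1 difference given here, the knockdown and a different origin of the labelled cells cannot be told apart. The MCF10AT1 controls were uneven as well. They correlated with the MCF10A controls at 0.7825 to 0.932 and with the knockdown-labelled MCF10A libraries at 0.818 to 0.941. Both ranges overlap that among the MCF10AT1 controls. Genes above 0 numbered 24648, 20121 and 26330 in their replicates a, b and c. In MCF10CA1h 4 of 10 epithelial markers rose, and of 6 tested fibroblast markers 2 rose and 1 fell. Of all genes, 7.91% were called higher and 4.85% lower in that line. In MCF10A 1 of 10 epithelial markers rose, where 1.16% of all genes were called higher. None of 3 fibroblast markers was called by limma in MCF10A (3 at an unadjusted p under 0.05).

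**Figure D1:**
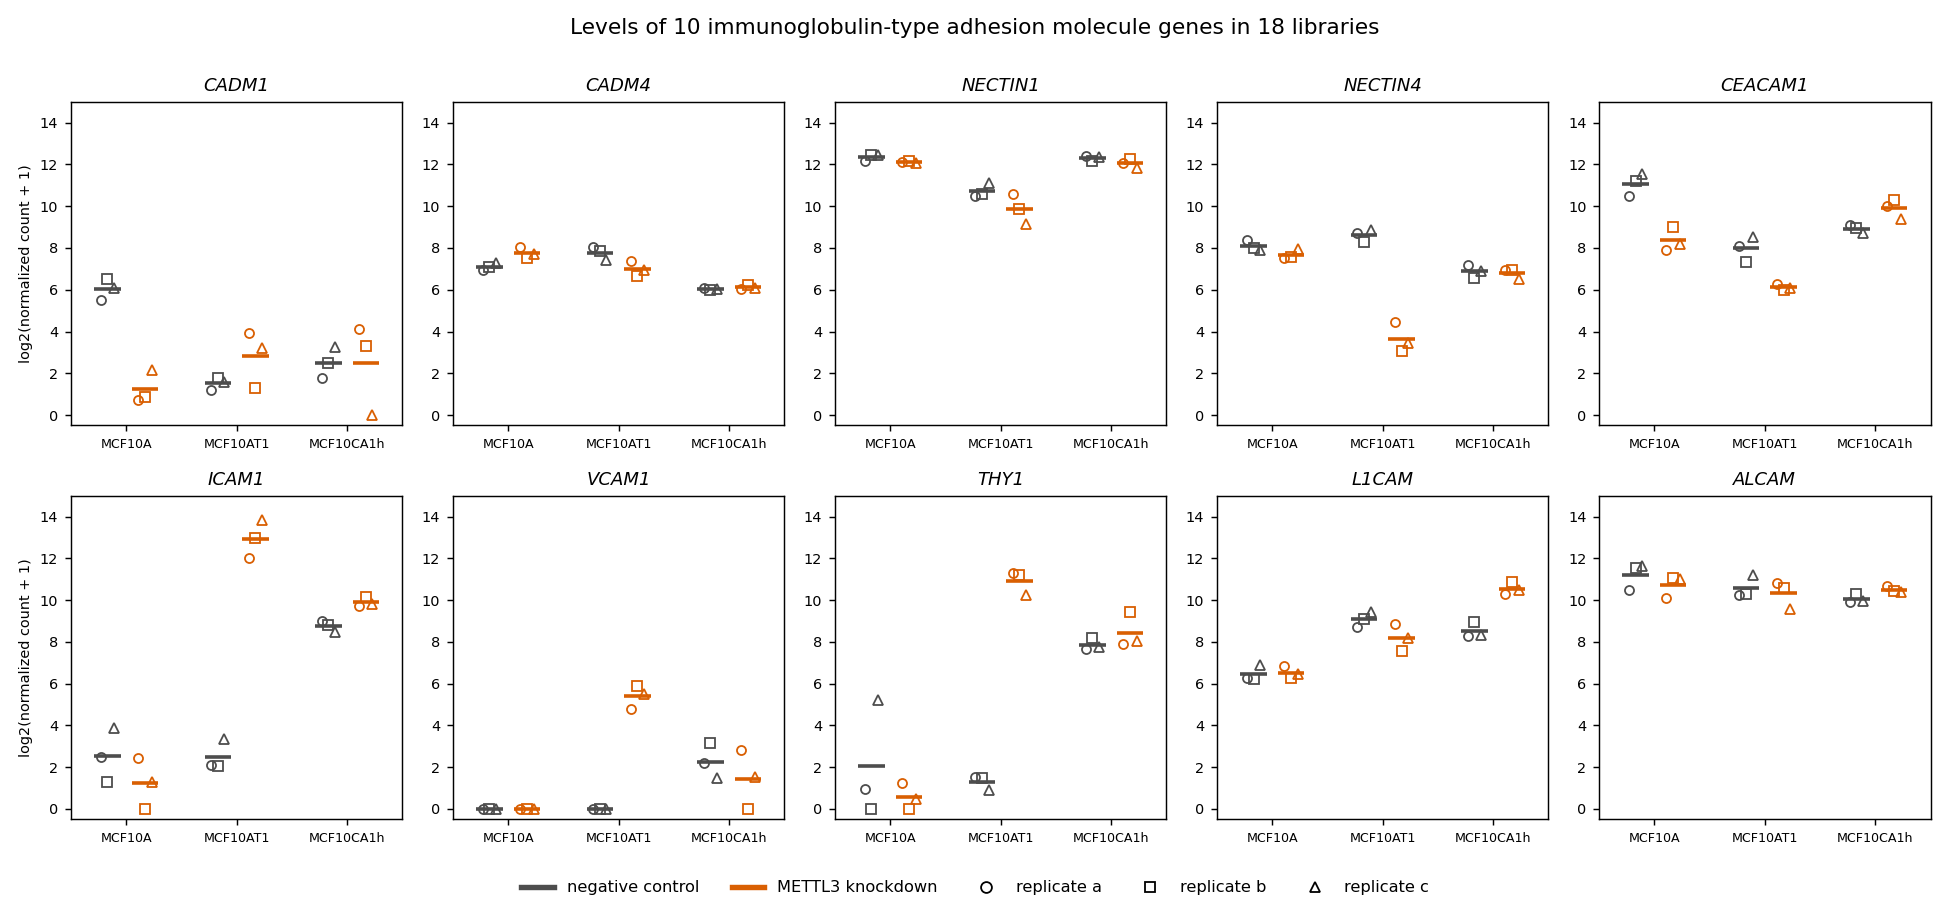
Each panel plots 1 gene, with log2(normalized count + 1) on the y axis and the 3 lines on the x axis; open symbols are single libraries (circle a, square b, triangle c), horizontal bars are group means of the log2 values, grey is negative control and orange is labelled METTL3 knockdown. In MCF10AT1 the ICAM1, VCAM1 and THY1 points of the 2 arms lie far apart, with ICAM1 at 3.12 to 9.21 normalized counts in controls and 4121 to 14585 in the libraries labelled knockdown.

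The first comparison asked how each line's knockdown arm differed from its control. In MCF10A, CADM1 and CEACAM1 were lower in the libraries labelled knockdown and no member was higher. In MCF10AT1, ICAM1, VCAM1 and THY1 were higher and NECTIN4 and CEACAM1 lower, and in MCF10CA1h, ICAM1, L1CAM and CEACAM1 were higher. The test was limma on log2(normalized count + 1) over all genes with a mean of at least 10 in the 6 libraries of a line, and a gene was called at a Benjamini-Hochberg adjusted p under 0.05.

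In MCF10A 7 of the 10 members could be tested and 2 were called, both lower (3 had an unadjusted p under 0.05), while 2.65% of the 15416 genes tested were called, 1.16% higher and 1.49% lower. With the replicate letter as a block, 1172 genes in place of 409 were called, and the same 2 members. In MCF10AT1 5 of 9 members tested were called, 3 higher and 2 lower, against 13.0% of 16050 genes, 7.07% higher and 5.96% lower. With the letter as a block 3939 genes in place of 2091 were called there, and the same 5 members. In MCF10CA1h 3 of 8 members tested were called, all higher, against 12.8% of 15127 genes, 7.91% higher and 4.85% lower. The median log2 difference over the members tested came to -0.42 for MCF10A, -0.78 for MCF10AT1 and 0.51 for MCF10CA1h, with -0.003, 0.02 and -0.02 over all genes tested. Of the members left untested for a mean under 10, ICAM1, VCAM1 and THY1 were so in MCF10A, CADM1 in MCF10AT1, and CADM1 and VCAM1 in MCF10CA1h. CADM1 in MCF10A, and ICAM1, VCAM1 and THY1 in MCF10AT1, passed the limit only through their high group. Their calls rest on that group, and nothing is read from their part in the counts.

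**Figure D2:**
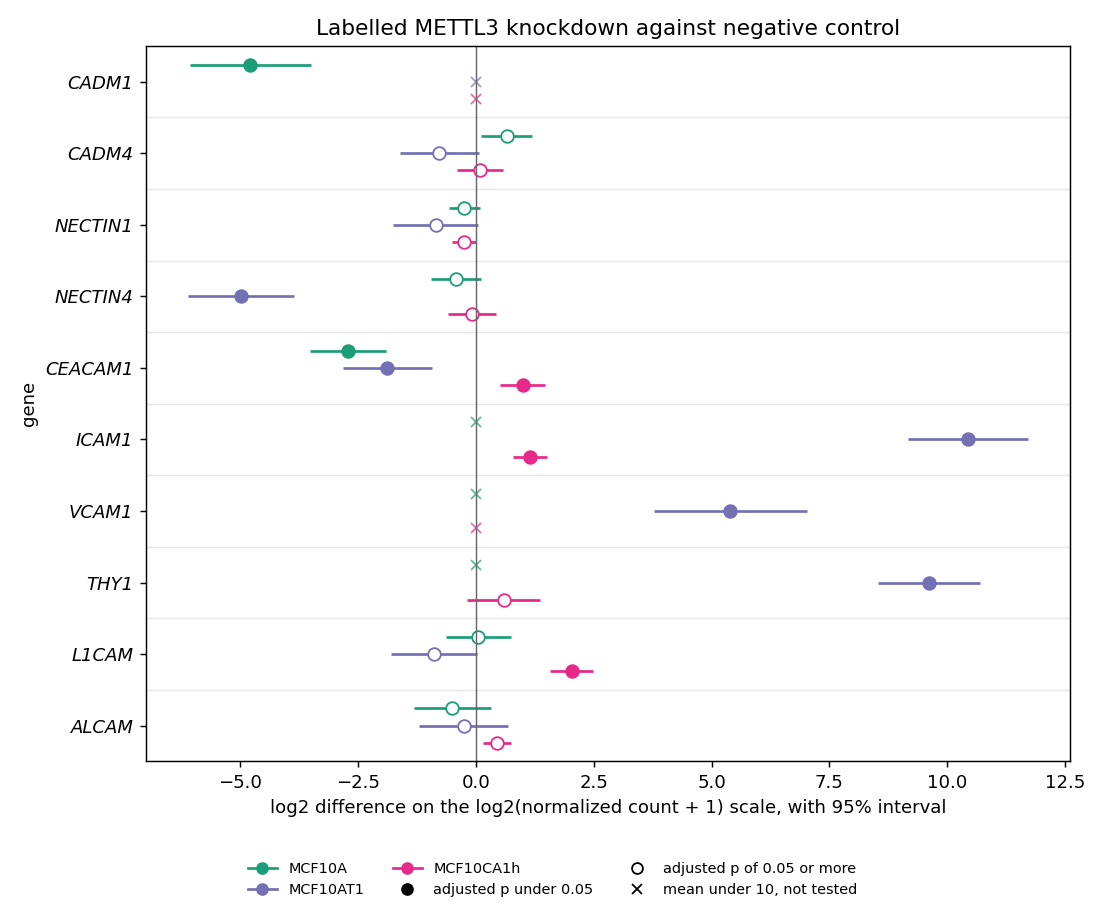
Points show, for each gene, the limma difference between libraries labelled METTL3 knockdown and negative controls on the log2(normalized count + 1) scale (x axis), with lines for 95% intervals, 1 colour per cell line, filled points for an adjusted p under 0.05, open points for 0.05 or more and crosses at 0 for genes not tested. CEACAM1 is filled on both sides of 0, at -2.71 in MCF10A, -1.88 in MCF10AT1 and 0.99 in MCF10CA1h.

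Among the nectin-like molecules, CADM1, a homophilic junction protein often silenced in carcinoma, was at 44.7, 90.5 and 66.7 in the MCF10A negative controls and at 0.62, 0.83 and 3.52 in the libraries labelled knockdown. The groups did not overlap, and the ratio of their means was 40.6. CADM1 fell by 4.79 on the log2 scale (SE 0.56, limma adjusted p = 0.00833). In MCF10AT1 CADM1 was at 1.28, 2.45 and 1.97 in controls and 14.1, 1.44 and 8.34 in the libraries labelled knockdown. In MCF10CA1h it was at 2.44, 4.59 and 8.47 against 16.4, 8.89 and 0. These low groups overlapped in both lines and were not tested.

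CADM4, the relative of CADM1 best known from myelinating Schwann cells and from epithelia, was at 124, 133 and 157 in the MCF10A controls and 265, 186 and 207 in the libraries labelled knockdown. The groups did not overlap, but the difference of 0.65 (95% interval 0.12 to 1.19) had a limma adjusted p of 0.19. In MCF10AT1 the order was the other way, with 262, 234 and 170.2 in controls and 167, 101 and 122 in the libraries labelled knockdown, and the difference of -0.78 (95% interval -1.62 to 0.06) was not called. In MCF10CA1h CADM4 was at 67.3, 62.4 and 64.2 against 65.1, 73.8 and 67.6, overlapping groups with a difference of 0.09 (95% interval -0.40 to 0.57).

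NECTIN1, a nectin of adherens junctions and an entry receptor for herpes simplex virus, was not called in any line. It stood at 4551, 5684 and 5677 in the MCF10A controls and 4458, 4599 and 4310.2 in the libraries labelled knockdown. In MCF10AT1 it was at 1432, 1523 and 2231 against 1519.5, 941 and 573, a difference of -0.86 with a 95% interval from -1.75 to 0.04. In MCF10CA1h it was at 5492, 4654 and 5174 against 4295, 4890.0 and 3694. The groups overlapped in all 3 lines, and the differences in MCF10A and MCF10CA1h were -0.24 (95% interval -0.58 to 0.09) and -0.26 (95% interval -0.52 to 0.003).

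NECTIN4, a nectin of embryonic and carcinoma epithelium and the target of an antibody-drug conjugate used in urothelial cancer, was at 422, 307 and 468 in the MCF10AT1 controls. In the MCF10AT1 libraries labelled knockdown it was at 20.7, 7.27 and 9.83. With no overlap between the groups and a ratio of means of 31.7, NECTIN4 fell by 4.98 (SE 0.49, limma adjusted p = 0.000452). In MCF10A it was at 330.4, 257 and 237 against 181, 187 and 249, and in MCF10CA1h at 146, 93.6 and 117 against 122, 123 and 90.6. The groups overlapped in both lines, and the differences were -0.42 (95% interval -0.95 to 0.12) in MCF10A and -0.08 (95% interval -0.59 to 0.44) in MCF10CA1h.

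CEACAM1 was called in all 3 lines, lower in MCF10A and MCF10AT1 and higher in MCF10CA1h. In MCF10A it was at 1420.5, 2356 and 3012 in controls and 235, 513 and 293 in the libraries labelled knockdown, a ratio of means of 6.52, and it fell by 2.71 (SE 0.35, limma adjusted p = 0.0123). Without control replicate b its limma adjusted p was 0.0543, and without knockdown replicate c it was 0.0666, so that call rests on each of these libraries. In MCF10AT1 CEACAM1 was at 274, 161 and 371 in controls and 75.2, 62.4 and 67.3 in the libraries labelled knockdown, a ratio of means of 3.94, and it fell by 1.88 (SE 0.41, limma adjusted p = 0.0197). That call was lost without control replicate a or c or knockdown replicate a or b, with limma adjusted p between 0.0522 and 0.0955. In MCF10CA1h it was at 553, 491 and 416 in controls and 1023, 1276 and 679 in the libraries labelled knockdown, and rose by 0.99 (SE 0.21, limma adjusted p = 0.0132), with a ratio of means of 2.04. In each of the 3 lines the groups were free of overlap.

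ICAM1, the ligand of the leukocyte integrins LFA-1 and Mac-1, was at 3.34, 3.12 and 9.21 in the MCF10AT1 controls and at 4121, 8163 and 14585 in the libraries labelled knockdown. The groups did not overlap, the ratio of their means was 1715, and ICAM1 rose by 10.44 (SE 0.56, limma adjusted p = 3.16e-05). In such bulk libraries a change in the share of cells with the transcript and a change in transcript per cell cannot be told apart. In MCF10CA1h ICAM1 was at 509.9, 445 and 357 in controls and 851, 1149 and 902 in the libraries labelled knockdown. The points did not overlap there either, the ratio of means was 2.21, and ICAM1 rose by 1.15 (SE 0.16, limma adjusted p = 0.0018). In MCF10A it was at 4.57, 1.47 and 13.6 against 4.45, 0 and 1.45, overlapping groups near the floor of the table.

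VCAM1, the ligand of the integrin VLA-4 and typical of activated endothelium, was listed at 0 in all 6 MCF10A libraries and in the 3 MCF10AT1 negative controls. In the MCF10AT1 libraries labelled knockdown it was at 26.9, 59.0 and 43.9. No fold is given against a group listed at 0, and the fitted difference of 5.40 (SE 0.71, limma adjusted p = 0.00179) depends on the pseudocount, running from 3.21 to 6.38 over the alternatives. In MCF10CA1h VCAM1 was at 3.55, 7.84 and 1.75 against 5.97, 0 and 1.90, and was not tested.

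THY1, also called CD90, was at 1.91, 1.81 and 0.87 in the MCF10AT1 controls and at 2557, 2364 and 1199.5 in the libraries labelled knockdown. The groups did not overlap, the ratio of means was 1333, and THY1 rose by 9.61 (SE 0.47, limma adjusted p = 2.51e-05). In MCF10CA1h it was at 199, 289.9 and 214 against 235, 680.1 and 262, where replicate b of the libraries labelled knockdown was far above the other two and the groups overlapped. That difference was 0.59 (95% interval -0.19 to 1.36). In MCF10A a single control, replicate c at 36.5, was above the rest, which lay between 0 and 1.38. ICAM1, VCAM1 and THY1 in MCF10AT1 kept their calls when any single library of that line was left out, with limma adjusted p up to 0.0253. In those refits too they passed the limit on low values only through the high group.

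L1CAM was at 305, 497 and 323 in the MCF10CA1h controls and at 1234, 1867 and 1454 in the libraries labelled knockdown. The groups did not overlap, the ratio of means was 4.05, and L1CAM rose by 2.03 (SE 0.20, limma adjusted p = 0.000234). It was at 77.4, 74.7 and 117 against 114, 77.2 and 86.5 in MCF10A, a difference of 0.05 (95% interval -0.63 to 0.74). In MCF10AT1 it was at 421, 549 and 681 against 463, 188 and 289, with overlapping groups and a difference of -0.88 (95% interval -1.79 to 0.03).

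ALCAM was not called in any line. It was at 1442, 2944 and 3226 against 1105, 2152 and 2042 in MCF10A, a difference of -0.50 (95% interval -1.32 to 0.32). In MCF10AT1 it was at 1208, 1268 and 2347 against 1817, 1525 and 765, a difference of -0.25 (95% interval -1.197 to 0.69). In MCF10CA1h, at 964, 1272 and 989.8 against 1642, 1389 and 1335, the groups did not overlap, and the difference of 0.44 (95% interval 0.14 to 0.74) had a limma adjusted p of 0.0586. Without control replicate b of that line the adjusted p of ALCAM was 0.021.

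The calls for MCF10CA1h depended on which libraries shared the estimate of spread. When all 18 libraries were fitted together, 1 member, L1CAM, was still called there, and the limma adjusted p was 0.629 for ICAM1 and 0.251 for CEACAM1. In MCF10AT1 the same fit tested 9 members and called 7 of them. It left out VCAM1, whose mean over the 18 libraries was under 10, kept ICAM1, THY1, NECTIN4 and CEACAM1, and added CADM4 (limma adjusted p = 0.0239), L1CAM (0.0454) and NECTIN1 (0.0202), all lower.

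Differences between the knockdown effects of 2 lines were tested in a fit of all 18 libraries, for the 9 members with a mean of at least 10 over them, which left out VCAM1. Between MCF10AT1 and MCF10A 5 of the 9 effects differed, those of CADM1, CADM4, ICAM1, THY1 and NECTIN4, against 21.6% of 15897 genes. Between MCF10CA1h and MCF10A 3 of 9 differed, those of CADM1, L1CAM and CEACAM1, against 5.34% of genes, and between MCF10CA1h and MCF10AT1 5 of 9 differed, those of ICAM1, THY1, L1CAM, NECTIN4 and CEACAM1, against 18.2%. These contrasts share libraries. CADM1 passed the limit on low values in this fit only through the MCF10A controls, so nothing is read from its part in the counts. The CEACAM1 effects of MCF10A and MCF10AT1 differed by 0.83 (95% interval -0.22 to 1.88, limma adjusted p = 0.26), and the ALCAM and NECTIN1 effects were not called as different between any pair of lines. Without replicate a of the MCF10AT1 libraries labelled knockdown, however, the NECTIN1 effect there differed from those in MCF10A (limma adjusted p = 0.0355) and MCF10CA1h (0.0452), the L1CAM effect from that in MCF10A (0.0453) and the CADM4 effect from that in MCF10CA1h (0.0475), and the last also without replicate c of the MCF10AT1 controls (0.049). The ICAM1 effect in MCF10CA1h exceeded that in MCF10A by 2.45 with an adjusted p of 0.155, and with the replicate letter as a block the adjusted p was 0.0286.

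The second comparison set the negative controls of the 3 lines side by side, in 1 fit of those 9 libraries, to describe the members along the progression model. The 3 contrasts share these libraries with each other and with the knockdown comparisons. The study used a single negative control line per cell line. In every control difference given here, the cell line and its control clone therefore cannot be told apart. MCF10AT1 controls had less CADM1, NECTIN1 and CEACAM1 and more L1CAM than MCF10A controls. MCF10CA1h controls had more ICAM1, THY1 and L1CAM and less CADM1, CADM4, ALCAM, NECTIN4 and CEACAM1 than MCF10A controls.

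Between MCF10AT1 and MCF10A, 4 of 9 members tested were called, 1 higher and 3 lower, against 28.1% of 15652 genes, 13.3% higher and 14.7% lower. Between MCF10CA1h and MCF10A, 8 of 9 were called, 3 higher and 5 lower, against 37.8%, 19.0% and 18.8% of genes. Between MCF10CA1h and MCF10AT1, 5 of 9 were called, 3 higher and 2 lower, against 21.8%, 11.0% and 10.8%. The median over the members was -0.64, -1.08 and 0.93 in these contrasts, and -0.01, -0.06 and 0.05 over all genes. VCAM1 was not tested. CADM1 passed the limit of 10 only through the MCF10A controls and ICAM1 and THY1 only through those of MCF10CA1h, so the calls of these 3 rest on that group, and nothing is read from their part in the counts.

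**Figure D3:**
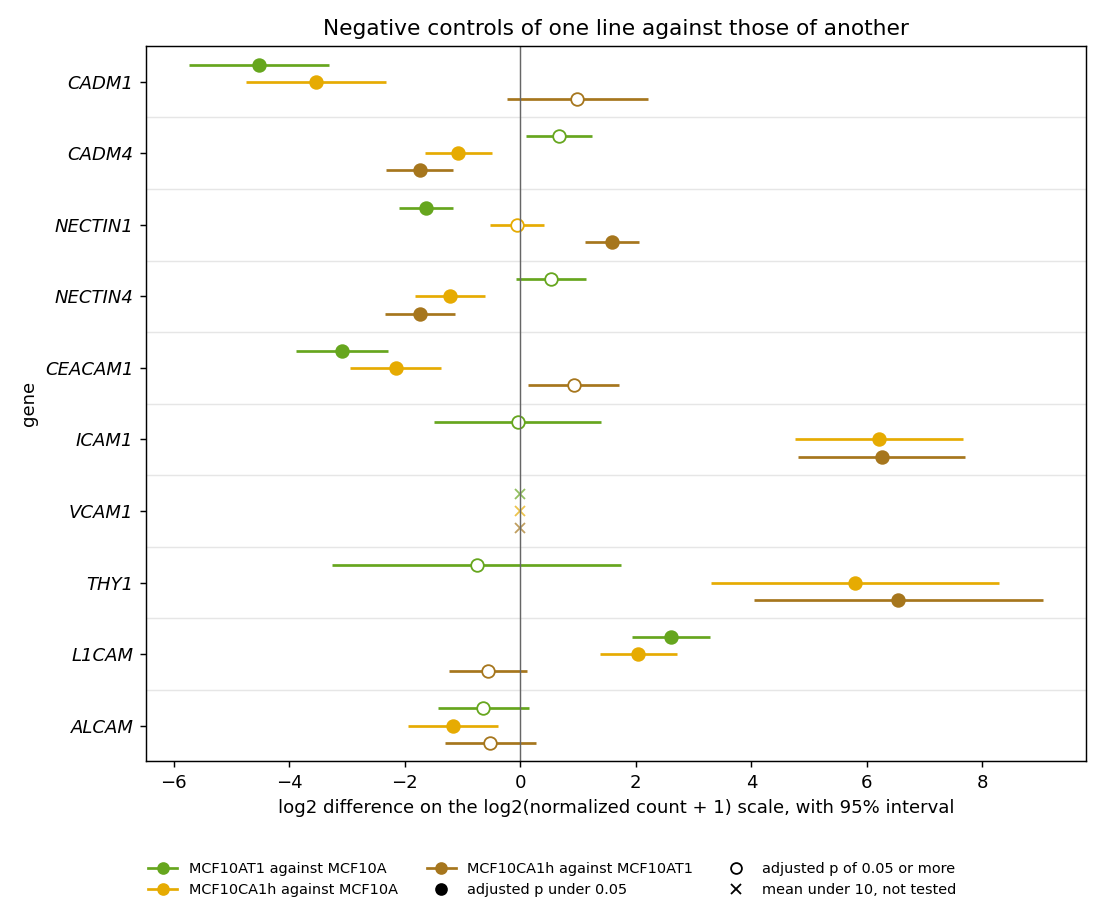
Points show the limma difference between negative controls of 2 lines on the log2(normalized count + 1) scale (x axis) for each gene, with lines for 95% intervals, 1 colour per pair of lines, filled points for an adjusted p under 0.05, open points for 0.05 or more and crosses at 0 for genes not tested. ICAM1 and THY1 lie far to the right in both contrasts of MCF10CA1h, at 5.79 to 6.55.

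The junctional members did not share an order along the model. CADM1 averaged 67.3 ± 22.9 in the controls of MCF10A, 1.90 ± 0.59 in those of MCF10AT1 and 5.17 ± 3.06 in those of MCF10CA1h (SD, n = 3). It was lower than in MCF10A by limma in MCF10AT1 (-4.52, SE 0.54, adjusted p = 0.001) and in MCF10CA1h (-3.53, SE 0.54, adjusted p = 0.0014), and the later 2 lines did not differ beyond their spread. NECTIN1 averaged 5304 ± 652 in MCF10A, 1729 ± 437 in MCF10AT1 and 5106 ± 423 in MCF10CA1h (SD, n = 3), so that MCF10AT1 was the low line, by -1.64 (SE 0.21, limma adjusted p = 0.00127) against MCF10A and with MCF10CA1h 1.59 higher than it (SE 0.21, limma adjusted p = 0.00104). CADM4 (64.6 ± 2.5, SD, n = 3) and NECTIN4 (119 ± 26.4, SD, n = 3) were lowest in MCF10CA1h. The CADM4 difference was -1.08 (limma adjusted p = 0.0105) from MCF10A and -1.74 (limma adjusted p = 0.00186) from MCF10AT1. For NECTIN4 these were -1.21 (limma adjusted p = 0.00765) and -1.74 (limma adjusted p = 0.00241). Neither gene was called between MCF10AT1 and MCF10A.

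CEACAM1 was highest in MCF10A, at 2263 ± 799.8 against 269 ± 105 in MCF10AT1 and 487 ± 68.3 in MCF10CA1h (SD, n = 3). The limma differences from MCF10A were -3.08 (SE 0.35, adjusted p = 0.000856) and -2.16 (SE 0.35, adjusted p = 0.00185), and MCF10CA1h and MCF10AT1 were not called apart (0.93, adjusted p = 0.0907). L1CAM was lowest in MCF10A, at 89.8 ± 23.8 against 550.3 ± 130.1 and 375 ± 106 (SD, n = 3). It was higher than in MCF10A by 2.61 in MCF10AT1 (SE 0.30, limma adjusted p = 0.000862) and 2.05 in MCF10CA1h (SE 0.30, limma adjusted p = 0.00112), and the 2 later lines overlapped.

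ICAM1 was at 1.47 to 13.6 in the controls of MCF10A and MCF10AT1, and THY1 at 0 to 1.91 except in replicate c of the MCF10A controls, which held 36.5. ICAM1 averaged 6.54 ± 6.29, 5.22 ± 3.45 and 437 ± 76.9 in MCF10A, MCF10AT1 and MCF10CA1h (SD, n = 3), and MCF10CA1h exceeded MCF10A by 6.21 (SE 0.65, limma adjusted p = 0.000233) and MCF10AT1 by 6.26 (SE 0.65, limma adjusted p = 0.000341). THY1 averaged 12.5 ± 20.8, 1.53 ± 0.57 and 234 ± 48.9 (SD, n = 3), with differences of 5.79 (SE 1.12, limma adjusted p = 0.00398) and 6.55 (SE 1.12, limma adjusted p = 0.00376). Against MCF10A the THY1 difference was 7.37 without that replicate c and 4.76 without replicate b of the MCF10A controls, and the ICAM1 difference 6.87 and 5.59, and all 4 stayed called. ALCAM fell by 1.17 from MCF10A to MCF10CA1h (SE 0.35, limma adjusted p = 0.0271). That ALCAM call was lost when libraries were brought to equal sums (adjusted p = 0.0518) or without replicate b or c of the MCF10A controls or a or c of the MCF10CA1h controls (adjusted p 0.0855 to 0.103). Replicate c of the MCF10AT1 controls also decided calls: without it CADM4 (adjusted p = 0.0225) and ALCAM (0.0322) were called between MCF10AT1 and MCF10A and CEACAM1 (0.0235) between MCF10CA1h and MCF10AT1, and ALCAM was called between MCF10AT1 and MCF10A without replicate a of the MCF10A controls (0.0389).

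Over the 6 groups, the libraries labelled knockdown of MCF10AT1 held the highest ICAM1, VCAM1 and THY1 and the lowest NECTIN4 and CEACAM1, and each of these groups was apart from its neighbour in the order of means, with no overlap. ICAM1 fell from 8956 ± 5277 there to 967 ± 159.7 and 437 ± 76.9 in the knockdown-labelled and control libraries of MCF10CA1h (SD, n = 3), each apart from the next, and the other 3 groups overlapped. THY1 was next highest in the 2 MCF10CA1h groups, which overlapped each other. L1CAM was highest in the knockdown-labelled libraries of MCF10CA1h, at 1518 ± 322 (SD, n = 3), and CADM1 and CEACAM1 were highest in the MCF10A controls, all 3 apart from the next group. The ALCAM groups overlapped at every step of their order. How many of all genes have groups apart in this way was not counted. The absence of overlap therefore describes each gene alone, and nothing is read from its frequency among the members.

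Relatives and partners of the members were counted from lists, to be read against the share of all genes called in the same comparison. In MCF10A, where 1.49% of genes were called lower, 2 of 3 tested CEACAM relatives fell. CEACAM5, the carcinoembryonic antigen, went from 146, 97.8 and 136 to 3.63, 0 and 2.35 and fell by 5.66 (limma adjusted p = 0.00803). CEACAM6, its close paralogue, went from 638, 686 and 781 to 6.62, 41.5 and 33.9 and fell by 4.96 (limma adjusted p = 0.00919). The CEACAM genes share long stretches of sequence, so reads may have been split between them and CEACAM1. In MCF10AT1, with 5.96% of genes called lower, CEACAM6 fell by 4.43 (1 of 2 relatives tested, limma adjusted p = 0.00725), and of the 2 tested in MCF10CA1h none was called by limma (1 at an unadjusted p under 0.05). CEACAM5 in MCF10A and CEACAM6 in MCF10AT1 passed the limit on low values only through their controls.

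In MCF10AT1, where 7.07% of genes were called higher, 1 of 4 tested nectin and nectin-like relatives rose. It was CADM3, a nectin-like molecule of neural tissue, which went from 0, 1.81 and 1.72 in controls to 7779, 11305 and 19143 and rose by 12.56 (limma adjusted p = 1.87e-05). Of 5 tested L1 and NCAM relatives and ankyrins, 2 rose. NRCAM went from 0 in all 3 controls to 108, 95.2 and 227 (limma adjusted p = 0.000309), and NCAM1 from 9.11, 1.05 and 4.92 to 30.6, 35.1 and 60.2, a rise of 3.05 (limma adjusted p = 0.0326). MCAM, an ALCAM relative of melanoma and vascular cells, rose by 3.32 there (1 of 2 tested, limma adjusted p = 0.00271) and by 0.98 in MCF10CA1h (1 of 2 tested, limma adjusted p = 0.00365, with 7.91% of genes called higher there). CADM3, NRCAM and NCAM1, like COL3A1 above, passed the limit on low values in MCF10AT1 only through the libraries labelled knockdown, so their calls add no support to the counts. In MCF10A none of these 3 lists held a limma call, with 2 of 3, 1 of 5 and 0 of 2 genes at an unadjusted p under 0.05.

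**Figure D4:**
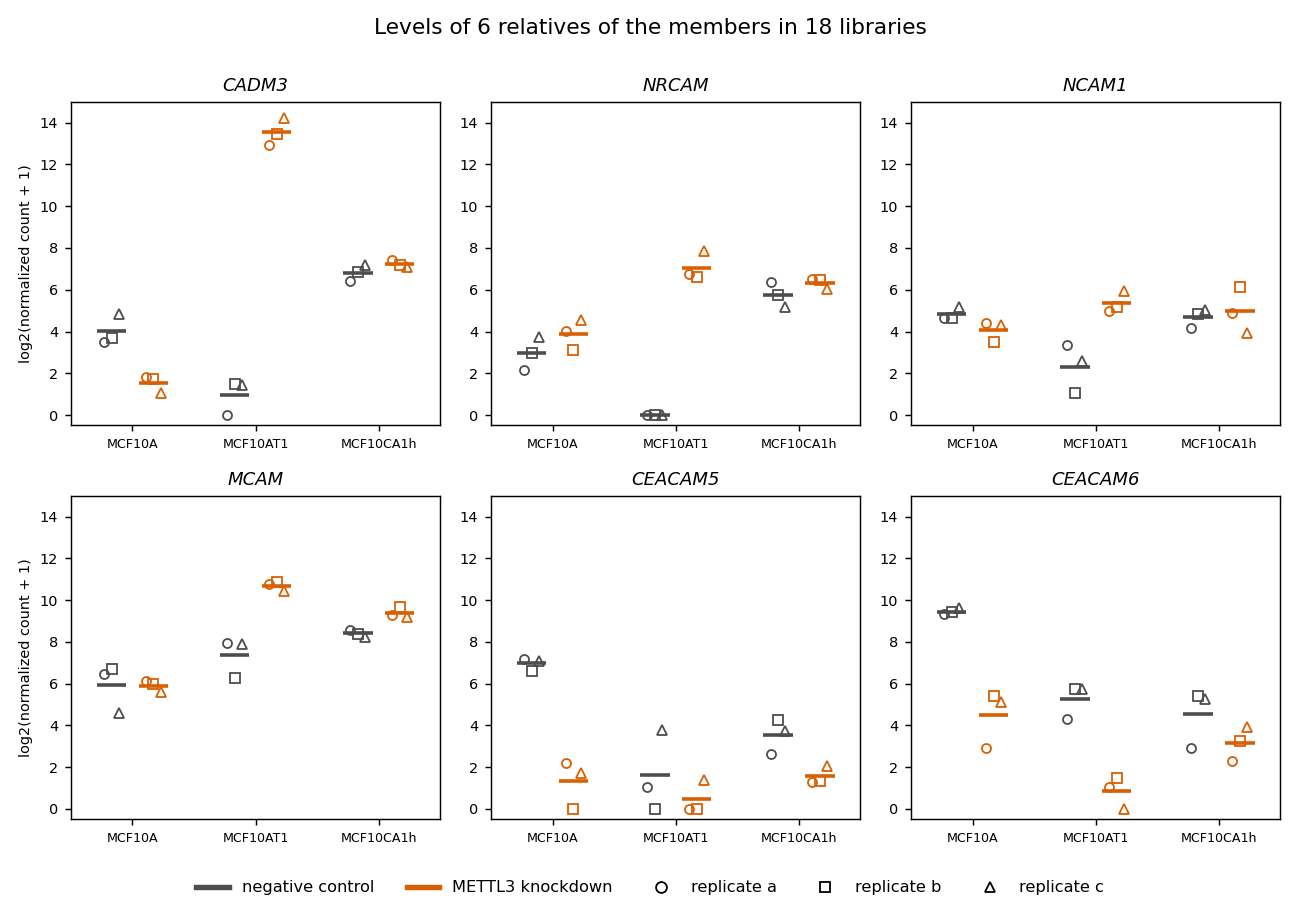
Each panel plots 1 relative of the members, with log2(normalized count + 1) on the y axis and the 3 lines on the x axis; open symbols are single libraries (circle a, square b, triangle c), bars are group means of the log2 values, grey is negative control and orange is labelled METTL3 knockdown. CADM3 lies at 0 to 1.81 normalized counts in the MCF10AT1 controls and at 7779 to 19143 in the libraries labelled knockdown, while CEACAM5 and CEACAM6 are highest in the MCF10A controls.

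Of the 7 ICAM1 and VCAM1 receptors and linkers tested in MCF10AT1, 2 rose and 1 fell, against 7.07% and 5.96% of genes. The leukocyte integrin chain ITGAX went from 6.39, 0 and 1.32 to 20.8, 23.0 and 23.8, a rise of 3.19 (limma adjusted p = 0.0468). Its partner chain ITGB2 rose by 1.00 (limma adjusted p = 0.049), and ITGB7, a chain of integrins for VCAM1 and MADCAM1, fell by 3.21 (limma adjusted p = 0.0417). ITGAX and ITGB7 each passed the limit on low values only through their high group. In MCF10CA1h 1 of 8 was called, a share near the 12.8% of all genes, ITGB1 with a rise of 0.39 (limma adjusted p = 0.0331), and in MCF10A limma called none of 7 (1 at an unadjusted p under 0.05). Among the ICAM and VCAM relatives the single call in a knockdown comparison was PECAM1. It fell by 1.198 in MCF10CA1h (1 of 3 tested, limma adjusted p = 0.0389), where 4.85% of genes were called lower. The nectin-like PVR, a poliovirus receptor, rose by 0.48 in MCF10CA1h (1 of 4 relatives tested, limma adjusted p = 0.0123), against 7.91% of genes called higher. ANK3, an ankyrin that tethers L1-family tails, fell by 0.95 there (1 of 5 tested, limma adjusted p = 0.00349), against 4.85% called lower. Limma called none of the 4 to 5 tested nectin partners in any line (0, 1 and 0 at an unadjusted p under 0.05 in MCF10A, MCF10AT1 and MCF10CA1h). The sheddases ADAM10 and ADAM17, which release the outer parts of L1CAM, ALCAM and other members, were not called either (0 at an unadjusted p under 0.05 in each line).

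Of the 11 tested NF-kB and cytokine response genes, 6 rose in MCF10AT1 and none fell, against 7.07% and 5.96% of genes. A link between this list and ICAM1 or VCAM1 was not tested. IL6 went from 43.5, 11.1 and 35.9 to 756, 483 and 1367, a rise of 4.88 (limma adjusted p = 0.00131). CCL2 was listed at 0 in the controls and at 49.1, 9.70 and 12.2 in the libraries labelled knockdown (limma adjusted p = 0.0158). It passed the limit on low values only through the latter, so nothing is read from its part in the count. CXCL8 rose by 3.06 (limma adjusted p = 0.0188). The median log2 difference of that list was 1.60, beside 0.02 over all genes. In MCF10CA1h 1 of 10 rose, a share near the 7.91% of all genes, BIRC3 by 0.91 (limma adjusted p = 0.0262). In MCF10A, against 1.49% of genes, 1 of 9 fell, CXCL8 by 2.42 (limma adjusted p = 0.0338).

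The genes most like each member in pattern were read from the Pearson correlation of log2(normalized count + 1) over the 18 libraries, among 15897 genes, as a description. The points share the 6 groups, so a group that stands apart carries much of each value. ICAM1 was most like COL6A1 (0.981), ITGBL1 (0.979) and HOXA11-AS (0.977). THY1 was most like SYNGR1 (0.984), then ICAM1 (0.975) and SAMD4B (0.967), so that 2 of the members appear beside each other here. NECTIN4 was closest to C1orf210 (0.967), CBLC (0.963) and KIAA1522 (0.958), and NECTIN1 to RASSF6 (0.958), HAS3 (0.958) and GPR161 (0.957). L1CAM was closest to RNF114 (0.960), SAMHD1 (0.916) and ARFGAP1 (0.895), and CEACAM1 to BMAL2 (0.944), SQLE (0.943) and PPP4R1 (0.942). For CADM4 the nearest were PTCHD4 (0.926), ANKZF1 (0.922) and CFAP68 (0.920). ALCAM and CADM1 had weaker neighbours, at most 0.838 (TRAK2) and 0.791 (DNAJB5), after which came TRIP11 (0.830) and RALGPS2 (0.825) for ALCAM and PUDP (0.777) and SMAD9 (0.770) for CADM1. VCAM1 was not ranked, with a mean under 10 over the 18 libraries.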

How the data were processed

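RNA from 18 libraries of established human breast epithelial lines was analysed. By their protocol the authors removed ribosomal RNA, although the labels give polyA RNA as the molecule, which remains unresolved. Reads were pseudo-aligned by the authors with kallisto 0.46.1, brought to gene level by tximport and normalized in DESeq2 1.26.0, versions as in the submitters' processing notes, on hg38. The deposited signal is the normalized count, not scaled for length and not a whole number of reads. The table held 35933 genes with values and 24646 rows without. Between 17.3% and 40.3% of low values per library lay at whole multiples of its most frequent low value, within 0.02 of a step, so reads were not recovered, the depth is unknown and no counting interval is given.

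Samples were grouped by their labelled line and genotype. Differences were tested with limma 3.58.1 (R 4.3.3, lmFit, then eBayes with trend) on log2(normalized count + 1), keeping genes whose mean over the fitted libraries reached 10, with Benjamini-Hochberg adjustment over all of them and a threshold of 0.05. Each line's 6 libraries were fitted alone, the 9 negative controls in 1 fit, and differences of effects in 1 fit of 18. The alternatives were a pseudocount of 0.5 or 5, no filter or a minimum mean of 50, eBayes without trend, equal sums per library, the replicate letter as a block, all 18 libraries in 1 fit and leaving out each library. Same-letter libraries of the 2 arms deviated together in MCF10A (correlations 0.221, 0.200 and 0.116 for a, b and c) and in MCF10AT1 (0.11, 0.289 and 0.477). In MCF10AT1, however, knockdown-labelled replicate a deviated with control b (0.251) more than with control a. The letters were taken to pair the arms in both lines, from the data and not the labels, though less clearly for replicate a of MCF10AT1. The main fits did not use the pairing.

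The members, the gene lists and the motifs were chosen with earlier results of these data known. Named were all members, METTL3, from each list at most the 3 called genes of largest difference per comparison, and per member the 3 genes of highest correlation; marker genes beyond that are named beside the results they move with. Gene positions came from GENCODE v44 and promoter sequences from RefSeq. Protein sequences were not analysed here.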

Additional observations from a re-analysis of the deposited data

Results flagged for a closer look

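The effects of the knockdown label differed between lines for 7 of the 9 members tested, CADM1 among them. The test was that of the difference itself, in 1 limma fit of the 18 libraries with adjustment over 15897 genes. The 3 contrasts, in the order given below, called 21.6%, 5.34% and 18.2% of these genes. The share called in at least 1 contrast was not counted, so nothing is read from the 7. Values are differences of log2 differences.

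Between MCF10AT1 and MCF10A the effect in MCF10AT1 was higher for CADM1 by 6.08 (SE 1.27, limma adjusted p = 0.00239), for ICAM1 by 11.74 (SE 0.92, limma adjusted p = 1.43e-07) and for THY1 by 11.09 (SE 1.29, limma adjusted p = 1.06e-05). It was lower for CADM4, at -1.43 (SE 0.35, limma adjusted p = 0.00718), and for NECTIN4, at -4.56 (SE 0.46, limma adjusted p = 2.58e-06). CADM4 was not called in either line alone. ICAM1 and THY1 were near the floor in MCF10A, and CADM1 was near the floor in MCF10AT1, so these sizes depend on the pseudocount. CADM1 passed the limit on low values in this fit only through the MCF10A controls, which also enter its differences here and in the next paragraph, so those calls are not independent of the limit. The CADM1 value was 6.84 without replicate b of the MCF10AT1 libraries labelled knockdown. Without single MCF10A libraries the ICAM1 value ran from 11.09 (without control replicate c) to 12.37 (without control replicate b) and the THY1 value from 9.51 to 12.12 (the same 2 libraries), and these stayed called.

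Between MCF10CA1h and MCF10A the effect in MCF10CA1h was higher for CADM1 by 4.76 (SE 1.27, limma adjusted p = 0.0389), for L1CAM by 1.97 (SE 0.45, limma adjusted p = 0.0168) and for CEACAM1 by 3.70 (SE 0.50, limma adjusted p = 0.000434). The CADM1 value was 3.94 without replicate a and 5.997 without replicate c of the MCF10CA1h libraries labelled knockdown. It was no longer called with a pseudocount of 0.5, without a filter, with the replicate letter as a block or without most single libraries of those lines, and the L1CAM value without replicate c of the MCF10A controls, replicate a or c of the MCF10CA1h controls or replicate b of the MCF10CA1h libraries labelled knockdown.

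Between MCF10CA1h and MCF10AT1 the effect in MCF10CA1h was lower for ICAM1, at -9.29 (SE 0.92, limma adjusted p = 1.89e-06), and THY1, at -9.02 (SE 1.29, limma adjusted p = 9.04e-05). It was higher for L1CAM by 2.91 (SE 0.45, limma adjusted p = 0.000215), for NECTIN4 by 4.90 (SE 0.46, limma adjusted p = 1.17e-06) and for CEACAM1 by 2.87 (SE 0.50, limma adjusted p = 0.000581).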

How the results depend on the processing

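Of 561 values of single members recomputed under settings other than leaving out a library, 549 kept their direction and side of the threshold, 7 lost and 4 gained a call, 1 uncalled difference changed sign and 0 called ones did. Of 873 recomputed without a library, 820 were the same, 23 lost and 10 gained a call, 20 uncalled differences changed sign, and 0 called ones did. The members called in MCF10A numbered 2, and 1 with a mean of at least 50, which left CADM1 untested; they numbered 1 to 2 without single libraries. In MCF10AT1 they numbered 5, and 4 to 5 without single libraries. In MCF10CA1h they numbered 3, 3 to 4 without single libraries, and 1 with all 18 libraries in 1 fit, where the cause was not tested. CEACAM1 there had an adjusted p of 0.0715 without an intensity trend. For the controls the counts ran from 4 to 6, 7 to 8 and 5 to 6 without single libraries, and for the differences of effects from 5 to 7, 1 to 3 and 5 to 7, in the order of the report.

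Counts over all genes moved more. In MCF10A, 409 genes were called, 237 without an intensity trend, 1172 with the replicate block and 52 to 1418 without single libraries. In MCF10AT1, 2091 were called, 3939 with the replicate block, 5146 in the fit of 18 and 1020 to 2439 without single libraries. In MCF10CA1h, 1929 were called, 1123 without an intensity trend, 248 in the fit of 18 and 1089 to 1785 without single libraries. For the controls of MCF10AT1 against MCF10A, 4391 were called and 1661 to 8142 without single libraries; for MCF10CA1h against MCF10A, 5920 and 3675 to 7623; and for MCF10CA1h against MCF10AT1, 3410 and 1608 to 5593. For the differences of effects the 849 of MCF10CA1h against MCF10A became 1283 with the replicate block and 470 to 1220 without single libraries. In MCF10CA1h the letters did not pair the arms (correlations of -0.01, 0.02 and 0.05), and the block gave 1876 calls in place of 1929. In paired fits with the replicate block, the counts of members called were 2, 5 and 3 in the 3 lines, and no member's call changed except for the CADM1 and ICAM1 differences between MCF10CA1h and MCF10A. The genes of the lists were tested under the main settings only.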

Other observations

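Among the relatives in the negative controls, all 3 tested CEACAM relatives were lower than in MCF10A in both later lines, where 14.7% (MCF10AT1) and 18.8% (MCF10CA1h) of all genes were called lower. CEACAM5 was lower by limma in MCF10AT1 (-5.36, adjusted p = 0.00401) and in MCF10CA1h (-3.43, adjusted p = 0.0137), as were CEACAM6 (-4.18, adjusted p = 0.00323, and -4.92, adjusted p = 0.000713) and CEACAM19 (-1.13, adjusted p = 0.00624, and -2.65, adjusted p = 6.34e-05). CADM3 was lower in MCF10AT1 than in MCF10A controls (-3.03, adjusted p = 0.00693) and higher in MCF10CA1h (2.81, adjusted p = 0.00513), where it was at 83.8, 115 and 145. NRCAM followed the same directions (-2.95, adjusted p = 0.00801, and 2.81, adjusted p = 0.00535). CEACAM5 passed the limit on low values only through the MCF10A controls, and CADM3 and NRCAM only through those of MCF10CA1h.

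Of 10 tested NF-kB and cytokine response genes, 7 were higher and 1 lower in MCF10CA1h than in MCF10AT1 controls, against 11.0% and 10.8% of genes. TNFAIP3 was higher by 4.22 (limma adjusted p = 0.015) and CXCL8 by 3.30 (limma adjusted p = 0.00357). Against MCF10A controls, 2 of the 10 were higher and 1 lower in MCF10CA1h, beside 19.0% and 18.8% of genes. In MCF10AT1, 1 was higher and 4 were lower than in MCF10A controls, beside 13.3% and 14.7%. The sheddases ADAM10 and ADAM17 were both lower in MCF10AT1 than in MCF10A controls, where 14.7% of genes were called lower. The differences were -2.03 (limma adjusted p = 0.04) and -1.72 (limma adjusted p = 0.0238), with ADAM10 at 352, 233 and 1441 across the MCF10AT1 controls. In MCF10CA1h 1 of the 2 was lower than in MCF10A controls, against 18.8% of genes. Neither was called between MCF10CA1h and MCF10AT1.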
